A study of Mus musculus with 6 samples.

Results

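*Met*, *Cav1*, *Cav2*, *Tes* and *Capza2* are neighbors on mouse chromosome 6, and their RNA was compared between 2 mouse lung squamous cell carcinoma (LUSC) lines. They are 5 of the 55359 genes in the count table, taken by Ensembl identifier, and each starts or ends at most 10 bases from its GRCm38 position. The genes were picked with the difference between the lines already known, so their levels in each line are described here and no p-value is given for them. UN-SCC679 and UN-SCC680 were both derived from lung tumors of A/J mice painted with the carcinogen N-nitroso-tris-chloroethylurea (NTCU), each from a different mouse. Both were grown in culture, passed through immunodeficient Rag2-/- IL2Rg-/- mice and engrafted into A/J mice before the working lines were set up. Polyadenylated RNA was sequenced in 3 libraries per line, and no treatment was applied. Whether the libraries of a line came from separate cultures is not stated, so the spread between them may be technical. Since each line comes from a single mouse, a difference between the lines cannot be assigned to any trait in which they differ.

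*Met* encodes the receptor tyrosine kinase of hepatocyte growth factor (HGF), which signals growth, survival and cell motility in epithelial cells and is a known oncogene in lung cancer. *Cav1* and *Cav2* encode caveolins, the membrane proteins that coat the small flask-shaped pits called caveolae. Caveolin 1 builds the coat, and caveolin 2 forms mixed oligomers with it and depends on it to reach the plasma membrane. *Tes* encodes testin, a LIM domain protein of focal adhesions and actin stress fibers. *Capza2* encodes an alpha subunit of the capping protein that closes the barbed end of actin filaments.

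All 5 genes lie on the + strand within 602 kb. In the positions of the table they are ordered *Tes* (ENSMUSG00000029552.20, 17065148 to 17105827), *Cav2* (ENSMUSG00000000058.7, 17281184 to 17289114), *Cav1* (ENSMUSG00000007655.17, 17306334 to 17341451), *Met* (ENSMUSG00000009376.16, 17463799 to 17573979) and *Capza2* (ENSMUSG00000015733.14, 17636233 to 17666971). The caveolin genes are 17.2 kb apart, and 62.3 kb separate *Met* from *Capza2*. The end that matches GRCm38 is displaced by a single base in each gene. The exons of *Met* cover 7679 bases in 22 blocks, those of *Tes* 6835 bases, *Capza2* 5890, *Cav1* 3444 and *Cav2* 3335. Only *Tes* shares exon bases with another row of the table, 144 bases (2.11% of its exons) with *Gm4876* on the other strand, a row that held 85 counts over the 6 libraries. Counting by strand is not stated, so reads in these shared bases cannot be assigned to one strand.

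The promoters of 4 of the genes are shown, from 250 bases before to 50 after a RefSeq transcript start on GRCm38.p6. For *Cav2*, *Cav1* and *Capza2* this is the first base of the RefSeq gene. For *Met* it lies 608 bases downstream of the first base of the gene, so another transcript start of *Met* lies outside the window. *Cav1* has a further window, set on a start 1305 bases downstream, which is not shown. The *Capza2* row of counts begins 527 bases before its window. *Met* and *Capza2* are shown because these adjacent genes differed most from each other between the lines, and *Cav2* and *Cav1* because their levels kept the same ratio. The windows are chr6:17463707-17464006 for *Met*, chr6:17636760-17637059 for *Capza2*, chr6:17280935-17281234 for *Cav2* and chr6:17306085-17306384 for *Cav1*, all on the + strand. Capitals mark motifs searched on both strands, each as written or as its reverse complement. The AP-1 motif was TGAGTCA, the motif bound by SP1-like factors (GC box) was GGGCGG, the motif bound by NF-Y was CCAAT, and the TATA motif was TATAAA. Marked motifs may overlap, as the GC boxes of *Cav2* do.
Met: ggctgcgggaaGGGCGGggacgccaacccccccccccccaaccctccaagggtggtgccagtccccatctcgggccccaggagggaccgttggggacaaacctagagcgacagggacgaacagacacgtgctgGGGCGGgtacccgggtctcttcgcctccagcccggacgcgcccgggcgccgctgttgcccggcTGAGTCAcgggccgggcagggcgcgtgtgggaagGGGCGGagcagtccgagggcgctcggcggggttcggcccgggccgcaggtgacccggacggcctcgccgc
Capza2: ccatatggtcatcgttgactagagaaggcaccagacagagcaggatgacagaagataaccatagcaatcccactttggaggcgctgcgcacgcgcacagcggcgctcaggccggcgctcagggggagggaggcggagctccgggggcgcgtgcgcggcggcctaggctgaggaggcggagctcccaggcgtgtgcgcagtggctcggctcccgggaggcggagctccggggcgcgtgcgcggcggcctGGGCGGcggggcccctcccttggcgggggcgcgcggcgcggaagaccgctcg
Cav2: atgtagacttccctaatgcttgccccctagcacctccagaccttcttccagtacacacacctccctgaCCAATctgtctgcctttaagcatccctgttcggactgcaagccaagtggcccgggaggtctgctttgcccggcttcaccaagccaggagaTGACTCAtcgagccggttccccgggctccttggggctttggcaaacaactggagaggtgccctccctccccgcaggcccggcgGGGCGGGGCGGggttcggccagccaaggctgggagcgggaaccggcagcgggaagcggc
Cav1: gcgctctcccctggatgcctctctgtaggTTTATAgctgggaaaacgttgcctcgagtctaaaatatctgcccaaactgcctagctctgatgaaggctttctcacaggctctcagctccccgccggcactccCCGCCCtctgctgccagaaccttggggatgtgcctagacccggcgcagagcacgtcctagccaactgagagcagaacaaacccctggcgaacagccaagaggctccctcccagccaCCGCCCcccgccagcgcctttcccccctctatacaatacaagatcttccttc
The AP-1 motif was present once in the *Met* window, from 54 bases before the transcript start that the window is set on, and once in the *Cav2* window, from 92 bases before its start. Of the 32851 promoter windows of the RefSeq table, 5.20% hold this motif, 35.7% the GC box, 37.4% the NF-Y motif and 13.6% the TATA motif. The *Met* window holds 3 GC boxes, the *Cav2* and *Cav1* windows 2 each and the *Capza2* window 1. The *Met* and *Capza2* windows are rich in CG dinucleotides, with 34 and 38, against a median of 7 over all windows. The caveolin windows shown hold 16 (*Cav2*) and 13 (*Cav1*). The further *Cav1* window holds 16 and none of the motifs, so the matches of *Cav1* describe its first start only. The motifs were chosen after the sequences had been seen, and a match describes the letters of the window only.

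The UN-SCC679 libraries totalled 3568293 to 4363229 counts and the UN-SCC680 libraries 4242716 to 4381885. The submitters' processing notes name mm10 (GRCm38), but most rows of the table lie at other positions, where counts may belong to other sequence. Only the 527 rows at unchanged positions were read as the genes they name. Of these, 268 passed the filter on low counts and were tested between the lines with edgeR's quasi-likelihood test at an adjusted p-value of 5e-05. None of the 12 squamous markers listed for the comparison lies at an unchanged position, so the labelled cell type could not be checked. Among 44 markers of squamous, alveolar, fibroblast, leukocyte and endothelial cells, only *Col1a2*, a fibroblast collagen gene, could be read.

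*Met* was the member that differed most between the lines, with 2.68 times the level in UN-SCC679. *Tes* was 1.63 times higher in UN-SCC679, *Cav1* 1.28 times and *Cav2* 1.27 times. *Capza2* differed little and in the other direction, 1.12 times higher in UN-SCC680, and its direction depended on the scaling. All 5 members passed the filter on low counts, and all 5 passed the threshold of the test, 4 lower and 1 higher in UN-SCC680. The threshold was passed by 61.6% of the 268 tested genes at unchanged positions, 22.0% as lower and 39.6% as higher, and by 30.4% of all 8987 tested rows. Genes of this set that are named here lie on chromosomes 4, 6, 9 and 18 only, so the 268 may not stand for the whole genome. No member overlapped between the lines. Among the 268 genes, 31.0% were lower in every UN-SCC680 library and 52.2% were higher in every one. The median log2 fold change of UN-SCC680 over UN-SCC679 was -0.36 over the 5 members and 0.18 over the 268 genes. The members were chosen on this contrast, so neither their count nor their median is evidence about them.

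The *Met* row held 15739, 18447 and 14810 counts in the UN-SCC679 libraries and 6464, 6755 and 6701 in the UN-SCC680 libraries. Scaled by library size and TMM factor to normalized CPM (counts per mega-count of the library), these were 4235, 4194 and 4142 for the former and 1538, 1563 and 1583 for the latter. The lines did not overlap, and the lowest UN-SCC679 library lay far above the highest UN-SCC680 library. The means were 4190.4 ± 46.9 and 1561 ± 22.3 CPM (SD, n = 3 each), and the log2 fold change was -1.42 (standard error 0.028). *Met* ranked 42 of 268 by the size of this change in either direction and 27 from the lowest value. The transcript of the HGF receptor took 0.415% to 0.425% of all counts of a UN-SCC679 library and 0.152% to 0.155% of a UN-SCC680 library.

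*Cav1* was the most abundant member, at 7150, 6940.4 and 6876 CPM in the UN-SCC679 libraries and 5324, 5403 and 5631 CPM in the UN-SCC680 libraries. Its raw counts lay between 22376 and 30524. Every UN-SCC680 library was below every UN-SCC679 library, and the log2 fold change was -0.36 (standard error 0.026). *Cav2* had 1255, 1256 and 1204 CPM in the UN-SCC679 libraries, against 927, 992 and 1018 CPM in those of UN-SCC680. These values did not overlap either, and the log2 fold change was -0.34 (standard error 0.034). Replicate 1 was the lowest UN-SCC680 library for both caveolins, and also for *Met* and *Capza2*. Without it the log2 fold changes were -0.33 for *Cav1* and -0.29 for *Cav2*. *Col1a2* moved in the same direction, from 26677 to 29001 CPM in the UN-SCC679 libraries to 2194 to 2374 in the UN-SCC680 libraries. Its part in the caveolin and *Met* differences was not tested, and in bulk RNA fewer cells with a transcript and less of it per cell cannot be told apart.

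*Tes* had 1075, 1033 and 1036 CPM in the UN-SCC679 libraries and 643, 650.1 and 638 CPM in the UN-SCC680 libraries. The testin transcript was lower in all 3 UN-SCC680 libraries, with a log2 fold change of -0.70 (standard error 0.034). *Capza2* had 1656, 1642 and 1625 CPM in the UN-SCC679 libraries, against 1791, 1853 and 1892 CPM in those of UN-SCC680. The groups did not overlap, and the log2 fold change was 0.17 (standard error 0.030). The call of *Capza2* was lost without UN-SCC679 replicate 2 (0.17), UN-SCC679 replicate 3 (0.16) or UN-SCC680 replicate 2 (0.17), with the replicate number as a block (0.17) and when counts were scaled by library size alone (0.14). With TMM factors taken from the genes at unchanged positions, log2 fold changes of the members shifted by -0.18, which left *Capza2* at -0.011 and *Met* at -1.60. With this scaling 151 of the 268 genes were called, 69 of them as higher in UN-SCC680, against 106 of 165 with factors from all filtered rows. Libraries of a line differed by a coefficient of variation of 0.959% to 4.82% across the 5 genes, beside 0.608% to 1.91% from counting alone.

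**Figure D1:**
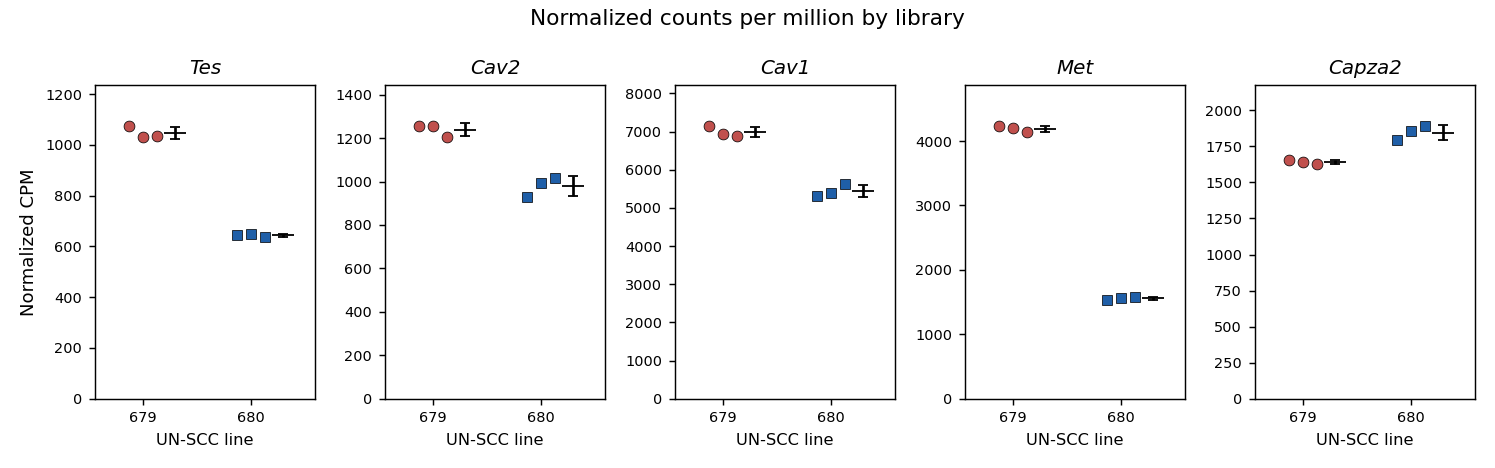
Normalized CPM (y axis, from 0) of the 5 genes in each library of UN-SCC679 (circles) and UN-SCC680 (squares), with the mean and SD of 3 libraries in black. *Met*, *Cav1*, *Cav2* and *Tes* were lower in UN-SCC680 without overlap, and *Capza2* was slightly higher, at 1791 to 1892 against 1625 to 1656 CPM, a direction that turned with scaling on the genes at unchanged positions.

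Ratios of members within a library do not depend on how libraries are scaled. Per kilobase of exon, the ratio of *Met* to *Capza2* was 1.96 in each of the 3 UN-SCC679 libraries (SD 0.00313) and 0.659, 0.647 and 0.642 in the UN-SCC680 libraries. The level of the receptor transcript went from above to below that of its neighbor, a 3.02-fold change of the ratio. The ratio of *Tes* to *Capza2* went from 0.550 ± 0.00876 to 0.301 ± 0.00964, and that of *Cav1* to *Capza2* from 7.28 ± 0.0866 to 5.05 ± 0.0578 (SD, n = 3 each). For these 3 ratios the libraries of the lines did not overlap. The ratio of *Cav2* to *Cav1* behaved differently. It was 0.181, 0.187 and 0.181 in UN-SCC679 and 0.180, 0.190 and 0.187 in UN-SCC680. The ranges overlapped, and the means of 0.183 and 0.185 differed by less than the SD of either line (0.00337 and 0.00509). Of the 10 pairs that the 5 genes form, this was the only ratio whose libraries overlapped between the lines. The share of such ratios among pairs of other genes was not computed, and the members were chosen on this contrast. This count is therefore not evidence about the caveolins. Of the 268 tested genes taken singly, 31.0% were lower in every UN-SCC680 library and 52.2% higher in every one.

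**Figure D2:**
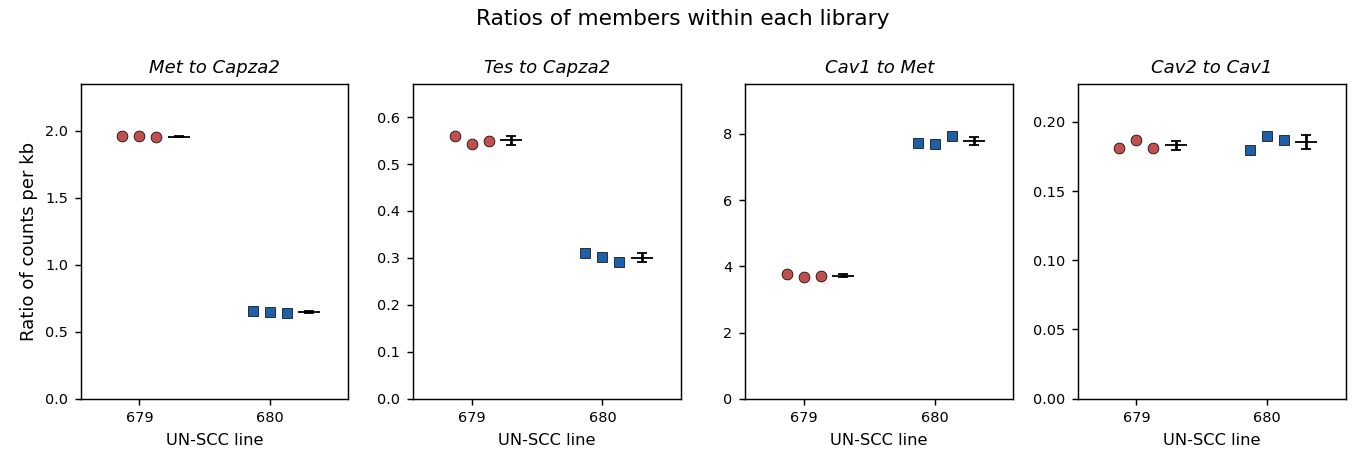
Ratios of counts per kilobase of exon between members in each library (y axis, from 0), with the mean and SD of 3 libraries in black. The ratio of *Met* to *Capza2* was 1.96 in UN-SCC679 (circles) and 0.642 to 0.659 in UN-SCC680 (squares), and the ratio of *Cav2* to *Cav1* overlapped between the lines.

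Levels of different genes were compared as normalized CPM per kilobase of exon, where the exon length is the union over all transcripts. In UN-SCC679 the order was *Cav1* (2029 ± 41.6), *Met* (546 ± 6.10), *Cav2* (371 ± 8.86), *Capza2* (279 ± 2.67) and *Tes* (153 ± 3.44, SD, n = 3 each). No neighbors in this order overlapped in range. In UN-SCC680 the order was *Cav1* (1583 ± 46.3), *Capza2* (313 ± 8.63), *Cav2* (294 ± 14.2), *Met* (203 ± 2.91) and *Tes* (94.2 ± 0.909). There *Capza2* and *Cav2* overlapped in range, at 304 to 321 and 278 to 305, although *Cav2* was below *Capza2* within each library, with ratios of 0.913 to 0.950. *Met* ranked 2 of the 5 in UN-SCC679 and 4 in UN-SCC680, while *Cav1* was highest and *Tes* lowest in both. Among the 268 tested genes at unchanged positions, *Cav1* ranked 3 by this level in both lines, and *Met* ranked 8 in UN-SCC679 and 33 in UN-SCC680.

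**Figure D3:**
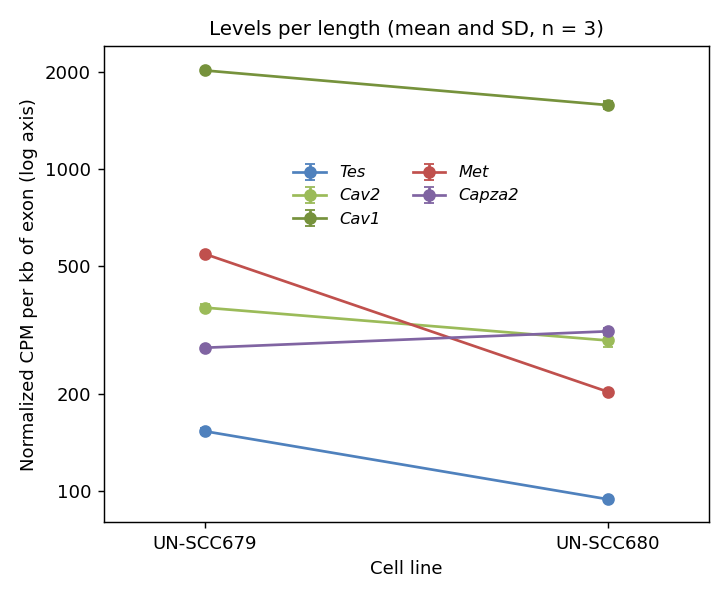
Mean normalized CPM per kilobase of exon (log axis) of the 5 genes in UN-SCC679 and UN-SCC680, with SD bars (n = 3) that are mostly smaller than the points. The line of *Met* (546 to 203) crosses those of *Cav2* (371 to 294) and *Capza2* (279 to 313), and *Cav1* stays highest.

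To set the 5 genes beside those around them, the other genes at unchanged positions within 5 Mb of the start of *Met* were taken by position alone. There were 27, of which 13 passed the filter on low counts. The other 14 held at most 22 counts over the 6 libraries, and 4 of these held none. Of the 13 tested neighbors, 9 (69.2%) passed the threshold of edgeR's test, 4 as lower and 5 as higher in UN-SCC680. The share among all tested genes at unchanged positions was 61.6%. The lower calls include *Cftr* and *Cttnbp2*, which had 0 counts in UN-SCC680 and passed the filter through UN-SCC679 alone. With factors from the genes at unchanged positions 7 of the 13 were called, 3 of them as higher, against 151 of the 268 genes. With factors from all filtered rows, the median log2 fold change of the 13 was 0.24, beside 0.18 over the 268 genes.

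*St7*, a gene described as a suppressor of tumorigenicity that follows *Capza2*, was lower in UN-SCC680, at 137 ± 3.72 CPM against 169 ± 5.24 (SD, n = 3 each). Its log2 fold change was -0.30 (edgeR adjusted p = 9.2e-06). *Cftr*, the chloride channel of epithelia, starts 707 kb beyond the start of *Met*. Its 95, 135 and 103 counts in the UN-SCC679 libraries stood against 0 in all 3 of UN-SCC680, which is at least 41.0-fold lower. *Cttnbp2*, which encodes a protein that binds cortactin, had 38, 44 and 38 counts against 0 in all 3, which is at least 14.9-fold lower. Both bounds take 3 counts as the floor of a UN-SCC680 library, scaled by library totals, and allow for counting error alone. *Met* itself held 6464 counts or more in every UN-SCC680 library.

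On the other side, *Mdfic* had a log2 fold change of 0.19 and was not called (edgeR adjusted p = 7.54e-05). With factors from the genes at unchanged positions it was at 0.014. *Gpr85*, an orphan receptor gene, had 61, 92 and 81 counts in the UN-SCC679 libraries and 233, 248 and 250 counts in those of UN-SCC680. It was higher in UN-SCC680 by 1.52 on the log2 scale (edgeR adjusted p = 2.04e-16). *Bmt2* (0.57) and, at the far end of the other flank, *Fam3c* (0.55) were also higher in UN-SCC680. *Tmem168* (0.24) and 2610001J05Rik (0.26) passed as higher, but with factors from the genes at unchanged positions they were at 0.064 and 0.081 and were not called. Scaled by library size alone, *Tmem168* kept its call (0.22) and 2610001J05Rik lost it (0.23). *Tmem106b*, a lysosomal membrane protein gene, was lower at -0.27 (edgeR adjusted p = 9.12e-09). *Ing3*, *Gm4876* and *Gm13898* had log2 fold changes of 0.028, 0.67 and 0.99 and did not pass (adjusted p of 0.727, 0.0741 and 0.000578 from edgeR). *Gm4876*, whose row runs from 17065009 to 17171832 on the - strand and spans the whole of *Tes*, had 31 counts over the UN-SCC679 libraries and 54 over those of UN-SCC680.

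**Figure D4:**
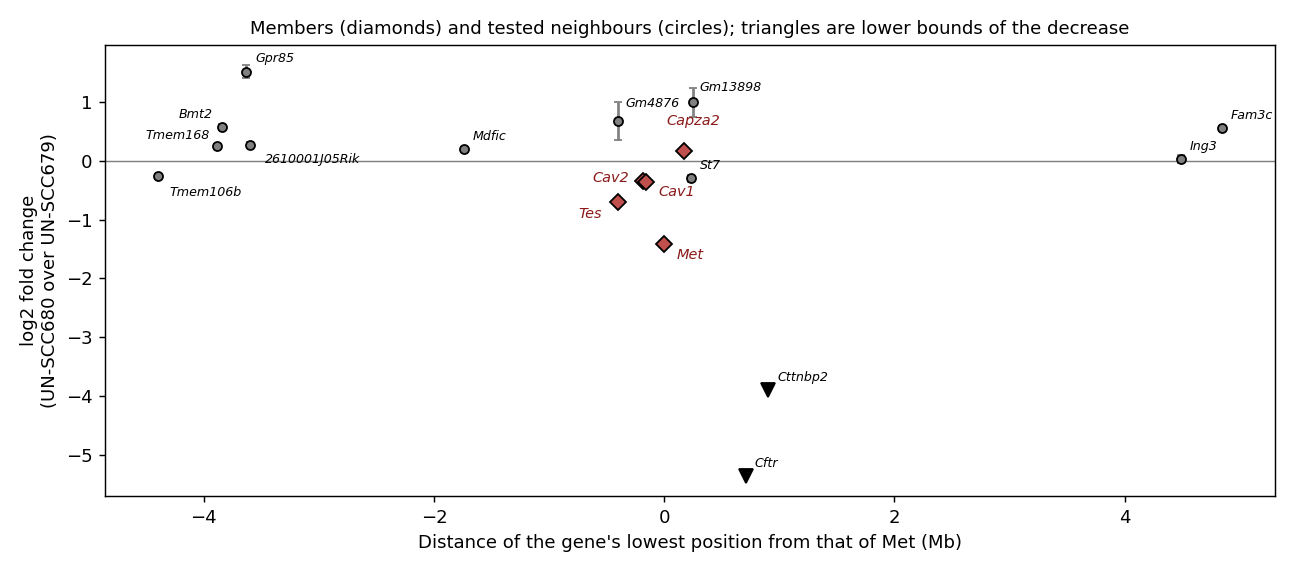
Log2 fold change of UN-SCC680 over UN-SCC679 (y axis, bars are standard errors) against the distance of the gene's lowest position from that of *Met* in Mb, for the 5 members (diamonds) and the 13 tested neighbors. Triangles place *Cftr* and *Cttnbp2* at the lower bound of their decrease, since both had 0 counts in UN-SCC680, and *Met* at -1.42 lies lowest among the genes with counts in both lines, while *Capza2* (0.17) falls to -0.011 with scaling on the genes at unchanged positions.

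Few partners of the 5 proteins could be read. Of 36 genes of HGF and MET signaling, *Met* alone lies at an unchanged position and the other 35 do not, among them the ligand gene *Hgf*. Of 16 genes of caveola structure, 3 could be read, *Cav1*, *Cav2* and *Cavin4*, a muscle-enriched cavin. *Cavin4* had 171, 175 and 163 CPM in the UN-SCC679 libraries, against 252, 258 and 269 CPM in those of UN-SCC680. It was higher in UN-SCC680, opposite to the caveolins, by 0.61 on the log2 scale (standard error 0.050, edgeR adjusted p = 1.59e-14), and by 0.43 when scaled on the genes at unchanged positions.

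*Capza2* was the only one of 12 actin capping genes at an unchanged position. Of 24 genes of focal adhesions and partners of testin, 4 could be read and 3 passed the filter. *Tln1*, which encodes talin, the link between integrins and actin, was higher in UN-SCC680, at 5173 ± 169.7 CPM against 3521 ± 108 (SD, n = 3 each). The difference was 0.56 on the log2 scale (edgeR adjusted p = 1.65e-21), and 0.38 when scaled on the genes at unchanged positions. *Flnc*, the actin cross-linker filamin C, was near 0 in UN-SCC680, at 2.58 ± 0.385 CPM against 1698 ± 48.0 (SD, n = 3 each). It held 9, 12 and 12 counts in the UN-SCC680 libraries and passed the filter on low counts through UN-SCC679. Its call as lower by the same test therefore adds nothing to these levels. *Actl7a*, an actin-like gene of the testis whose product binds testin, held 4 counts over the UN-SCC679 libraries and 1 over those of UN-SCC680, and was not tested. The readable adhesion genes did not share a direction, with *Tes* and *Flnc* lower and *Tln1* higher in UN-SCC680.

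The genes whose profile over the 6 libraries was most like that of *Met* were sought among 235 genes at unchanged positions with a mean of at least 10 CPM. Likeness was the root mean square difference of log2 CPM after centering each gene on its own mean. The closest were *Casp12* (0.093), *Casp1* (0.10), *Msantd4* (0.15), *Alkbh8* (0.18) and *Ddx58* (0.18). *Ddx58* lies on chromosome 4. The genes before it lie near one another on chromosome 9, with starts from 3335140 (*Alkbh8*) to 5345430 (*Casp12*), and all were lower in UN-SCC680. As neighbors, they may not be separate matches to *Met*. *Casp12* went from 568 ± 18.8 to 239 ± 7.78 CPM and *Casp1* from 860 ± 29.5 to 278 ± 2.80 CPM (SD, n = 3 each), with log2 fold changes of -1.25 and -1.63. No other member was among them, and *Tes* was the member nearest to *Met*, at 0.36. *Cav1* and *Cav2* were each other's closest gene, at 0.029. The closest gene to *Tes* was *Yap1* (0.052), also on chromosome 9 (start 7932000), and the closest to *Capza2* was *Kif5b* (0.025). The 6 libraries fall into 2 lines, so each distance takes in how far the genes differ between the lines.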

How the data were processed

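The labels describe polyadenylated RNA of 3 libraries per line, prepared with a stranded kit. The values the authors deposited are raw counts by Ensembl identifier, not normalized, beside exon positions and summed exon length. The submitters' processing notes name featureCounts and mm10, and the paper's methods name Trimmomatic, Kallisto and DESeq2. The build of the table's positions is not given in the sources used here. Columns were tied to libraries by line and replicate number, leaving 0 columns of values unused. Symbols were matched to 31021 of 55359 identifiers, and 25877 rows were placed by symbol or older symbol on the same chromosome of a RefSeq GRCm38.p6 table. A row was unchanged when its start or end lay within 10 bases (527 rows).

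The 8987 rows kept by filterByExpr were compared between the lines by the quasi-likelihood test of edgeR (TMM factors, no covariates) and Benjamini-Hochberg adjustment at 5e-05, and 2736 rows (30.4%) passed. Standard errors of log2 fold changes came from the F statistic. Tested on simulated data of this comparison, the fit called 195 of 200 changed rows and 0 of the rest of 8987. The simulated log2 fold changes were at least 1 in size, in rows with a mean of at least 10 CPM. All rows were given the same spread. Smaller changes, such as those of *Tes*, *Cav1*, *Cav2* and *Capza2*, were not simulated. The common coefficient of variation beyond counting was 3.12%, which may be technical. Replicates differed by more than sampling noise, with a chi-square per degree of freedom of 1.12 to 1.65 between pairs of libraries of a line. Alternatives were other scalings, filters, thresholds and tools, the replicate block and leaving out each library.

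The members and lists were chosen with earlier results of these data known. Genes named were the members, tested neighbors within 5 Mb, listed genes at unchanged positions and the 5 genes most like *Met*. Motifs and the closest gene of the other members were added after values were seen. Sequences are from RefSeq (GRCm38.p6, promoters matched for all 5 genes). Python 3.11.15, pandas 2.3.3, NumPy 2.4.6, matplotlib 3.10.9, R 4.3.3, limma 3.58.1, edgeR 4.0.16 and DESeq2 1.42.0 were used.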

Additional observations from a re-analysis of the deposited data

How the results depend on the processing

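*Met* kept its direction and its side of the threshold under all 17 alternatives, with log2 fold changes of -1.60 to -1.39. The looser threshold of 0.05 and the added limit on fold change reused the main fit, and the former could not remove a call. Since the members were chosen on this contrast, a kept call shows only how far it depends on the processing. *Cav1* (-0.54 to -0.33), *Cav2* (-0.52 to -0.29) and *Tes* (-0.88 to -0.67) kept theirs under 16 and missed only an added limit of an absolute log2 fold change over 1, where their values stay -0.36, -0.34 and -0.70. *Capza2* kept its call under 10. It was lost at 0.17 with that limit, at 0.14 with library size alone, at 0.17 with the replicate block and in 3 of the fits that left out a library (0.16 to 0.20 over all 6), and it reversed to -0.011 with TMM factors from genes at unchanged positions. Its log2 fold change of 0.17 lay beside the median of 0.18 of the 268 tested genes. Same-numbered libraries deviated with correlations of -0.038, -0.00052 and -0.022, and so do not show pairing by number, and the block changed no other member's call.

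At an adjusted p-value under 0.05 the 2736 rows became 5248, and they became 1024 when the log2 fold change also had to exceed 1 in size, the 165 genes at unchanged positions became 53 with that limit and 42 of 73 where start and end were both unchanged, and the 9 neighbors became 3 with that limit. Looser or stricter criteria or fewer rows account for these counts by construction. Leaving out a library gave 2226 to 2611 rows, 140 to 164 genes and 6 to 9 neighbors. Genes at 0 counts are limited by depth to bounds.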
